A study of Mus musculus with 16 samples.

Results

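Complement components, receptors and regulators were followed through cuprizone (CPZ) feeding and withdrawal in the mouse corpus callosum. The set comprised 9 genes, C1qa, C1qb, C1qc, C4b, C3, C3ar1, C5ar1, Itgam and Serping1, represented by 12 probes out of the 41174 probes and 18749 named genes on the array. Every probe whose accession mapped to one of these symbols was taken, whatever its signal. CPZ added to chow is toxic to the cells that make myelin, and myelin returns once normal chow is given. The question was how the mRNA of complement genes differed between untreated callosum, callosum during CPZ feeding and callosum after return to normal chow.

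All mice were wild-type C57BL/6 males, aged 7 to 8 weeks according to the methods. Single-colour arrays were hybridised with total callosal RNA from 3 untreated samples, 3 samples after 2 weeks of CPZ, 4 samples after 4 weeks of CPZ and 6 samples taken on regular diet after 4 weeks of CPZ. The labels give a CPZ content of 0.2 to 0.4% in powdered chow, whereas the methods give 0.2%. The methods give 2 days and 14 days of regular diet, but no label ties any of the 6 arrays to a time. These 6 arrays were therefore kept as one labelled group and are also described singly. The methods and figure legends give 3 to 6 mice per condition, with 3 at each of the 2 regular diet times, numbers that match the arrays. The labels number replicates without naming animals, so p-values measure the spread between arrays.

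Complement is a cascade of plasma proteins that tags surfaces for removal. C1q, built from the C1qa, C1qb and C1qc chains, recognises targets and starts the classical pathway, after which C4 and C3 are cleaved and deposited as opsonins. In the brain, C1q is made mainly by microglia, while C3 and C4 can be made by astrocytes and other glia, and deposited complement is known for marking synapses and debris for phagocytosis. The receptors C3ar1 and C5ar1 sense the released fragments C3a and C5a, Itgam is the alpha chain of complement receptor CR3, and Serping1 encodes the C1 inhibitor.

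Each value below is the log2 of the processed signal minus the log2 of the 75th percentile of that array, so 0 means a signal equal to that percentile and 1 unit is a factor of 2. Between 57.3 and 72.2% of probes were well above background on an array, and the 75th percentile ran from 159.2 to 357.5 signal units. The array behind each labelled sample was found by matching the deposited value table, because 13 of 16 scanner outputs were recorded under a sample of another group. Every comparison below depends on this choice. With the matched arrays, the median of 9 oligodendrocyte markers relative to the untreated mean was -0.62 to 0.52 in untreated arrays and -4.71 to -1.58 in CPZ arrays, whereas the 3 scanner outputs recorded as untreated had medians of 0.52, -3.43 and -1.76 on the same scale. How the complement results look with the recorded assignment stands among the processing alternatives. Within a group, arrays correlated across probes with r between 0.866 and 0.991. Regular diet arrays 1 and 2 stood apart from the other 4 in microglial genes and are treated as part of their labelled group unless stated. Because the tissue was taken in bulk, fewer cells of a type and less RNA per cell cannot be told apart.

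Promoter sequences are shown for C1qb and C1qc, whose mRNAs followed each other over the arrays, and for C3, which passed the test on regular diet. RefSeq sequences (build GRCm38.p6), running from 250 bases before to 50 bases after the start of the gene, were found for 6 of the 9 genes, C1qb, C1qc, C3, C3ar1, C5ar1 and Itgam; C1qa, C4b and Serping1 were not matched. C1qb lies at chr4:136886151-136886450, C1qc at chr4:136892865-136893164 and C3 at chr17:57228087-57228386, all on the minus strand. Sequences are written 5′ to 3′ along the gene. Capitals mark GAGGAA or its reverse complement in C1qb and C1qc, the core bound by the myeloid factor PU.1, and TTNNGNAA on either strand in C3, a loose form of the C/EBP site.
C1qb: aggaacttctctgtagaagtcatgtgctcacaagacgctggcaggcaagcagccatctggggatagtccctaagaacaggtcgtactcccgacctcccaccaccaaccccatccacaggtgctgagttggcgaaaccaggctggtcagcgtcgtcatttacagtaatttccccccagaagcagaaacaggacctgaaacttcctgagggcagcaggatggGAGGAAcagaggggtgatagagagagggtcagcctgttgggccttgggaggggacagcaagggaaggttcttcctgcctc
C1qc: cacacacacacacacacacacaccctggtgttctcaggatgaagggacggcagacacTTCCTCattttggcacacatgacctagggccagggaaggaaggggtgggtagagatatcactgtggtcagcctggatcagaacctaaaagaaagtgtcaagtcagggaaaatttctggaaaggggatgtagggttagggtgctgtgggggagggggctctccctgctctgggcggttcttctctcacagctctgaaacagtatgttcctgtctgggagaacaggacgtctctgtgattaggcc
C3: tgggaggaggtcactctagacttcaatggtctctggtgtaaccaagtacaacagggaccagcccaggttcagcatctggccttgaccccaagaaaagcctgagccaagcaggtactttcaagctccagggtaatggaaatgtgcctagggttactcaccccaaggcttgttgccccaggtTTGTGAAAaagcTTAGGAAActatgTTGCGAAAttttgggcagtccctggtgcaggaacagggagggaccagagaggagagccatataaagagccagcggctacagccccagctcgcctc

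These motifs were chosen with the sequences in view and are descriptions only. GAGGAA, searched on both strands, was found in 3 of the 6 complement promoters, C1qb, C1qc and Itgam, and in 28.3% of all 32851 promoters of that length. TTNNGNAA was found in 4 of the 6 and in 40.7% of all promoters, with 3 positions in C3. In the printed sequences no capital stretch overlapped a match to the other motif. Both motifs are common in windows of this length.

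Testing needed a signal well above background throughout at least 1 group, and a probe was called if limma gave a Benjamini-Hochberg adjusted p under 0.05 over all 27774 tested probes with a difference of at least 2-fold. Of the 12 probes, 10 were tested, and they covered 8 genes; C5ar1 and the second probe of C3 were not tested. Both C3ar1 probes entered the test only through treated groups, being dark in untreated callosum, so counts that include them had to lean towards higher values and are descriptions. At 2 weeks of CPZ, 0 of the 8 genes were called against 0.0972% of all tested probes, and 3 (C4b, C3ar1 and Serping1) had an unadjusted p under 0.05, against 9.62% of probes. At 4 weeks of CPZ, 0 of 8 were called against 0.0108% of probes, and 7 (all but Itgam) had an unadjusted p under 0.05, against 11.1% of probes. On regular diet, C4b and C3 were called higher than untreated, 2 of 8 against 0.789% of all tested probes called higher and 0.799% called either way, and 7 (all but Itgam) had an unadjusted p under 0.05, against 10.7% of probes. The methods' test, ANOVA with Tukey's post-hoc test and adjustment over all probes, called 0 of the 8 in each of the 3 comparisons.

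The median log2 fold change of the 8 genes against untreated was 1.38 at 2 weeks of CPZ, 1.59 at 4 weeks and 2.56 on regular diet, where the medians over all named genes were -0.02, 0.03 and -0.07. The 3 comparisons share the same 3 untreated arrays. The untreated and regular diet arrays did not overlap for 7 of 8 genes, against 4.88% of probes with all regular diet arrays above all untreated arrays. At 4 weeks of CPZ the arrays did not overlap for 6 of 8 genes, C1qa, C1qb, C1qc, C4b, C3ar1 and Serping1, against 5.31% of probes. At 2 weeks this held for 1 of 8 genes, C3ar1, against 8.32% of probes.

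**Figure D1:**
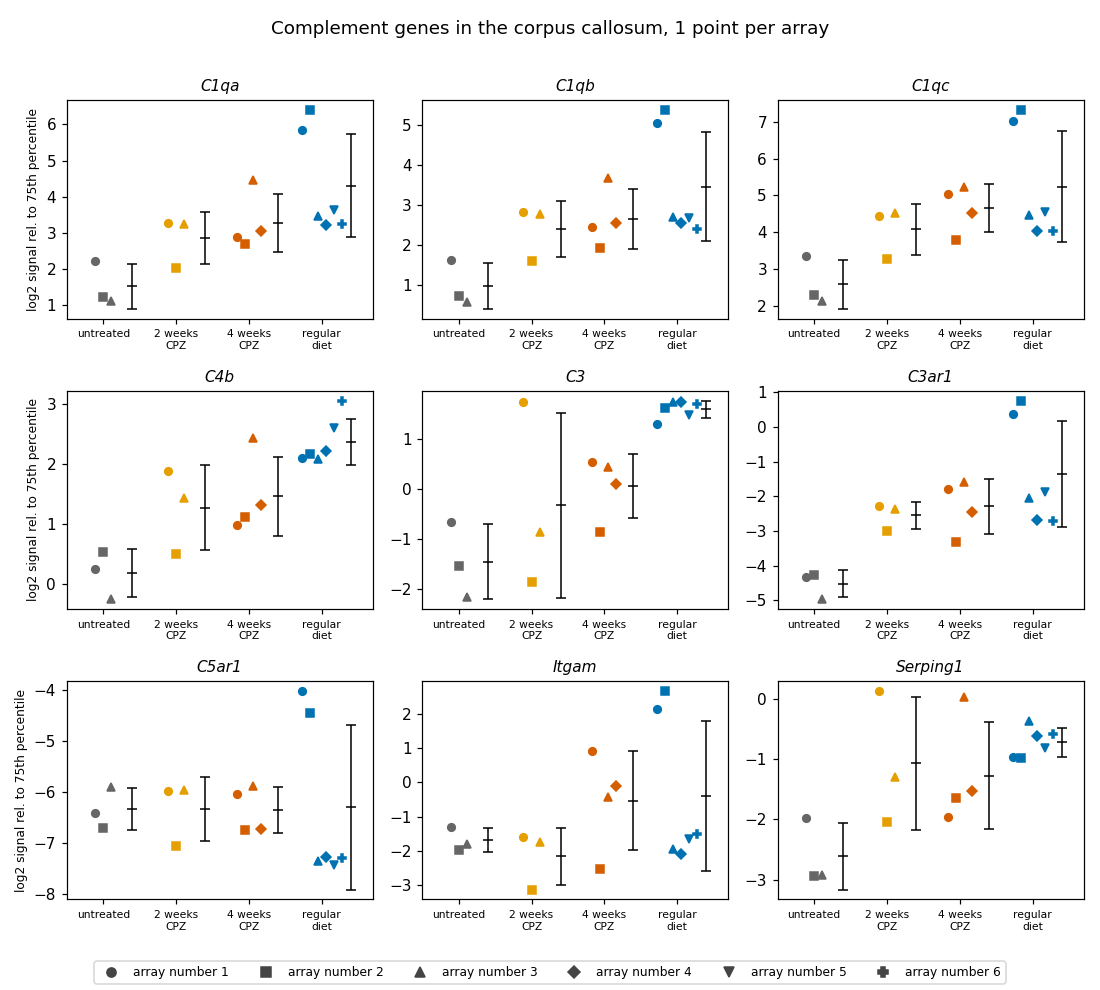
Log2 signal relative to the 75th percentile (y axis) of the 9 complement genes in the 4 groups (x axis). Each point is 1 array, its shape gives the array number within the group, and the black dash with bars is the mean ± SD of 3, 3, 4 and 6 arrays. Regular diet arrays 1 and 2 lie above the other 4 for C1qa, C1qb, C1qc, C3ar1, C5ar1 and Itgam but not for C4b, C3 or Serping1; C5ar1 was well above background on 1 array only.

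The chains of C1q, which recognise targets at the start of the classical pathway, had higher means in every treated group than in untreated callosum, but none passed the test. C1qa measured 2.23, 1.23 and 1.11 in the untreated arrays, whereas the 2-week arrays measured 3.28, 2.04 and 3.26 and the 4-week arrays 2.89, 2.70, 4.46 and 3.07. On regular diet C1qa ran from 3.21 to 6.39 with a median of 3.56, and arrays 1 and 2 measured 5.86 and 6.39. Every 4-week and every regular diet array lay above all untreated arrays, whereas at 2 weeks array 2 overlapped untreated array 1.

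For C1qa the log2 fold change against untreated was 1.34 ± 0.81 (SE) at 2 weeks, 1.75 ± 0.76 at 4 weeks and 2.79 ± 0.70 on regular diet, with limma adjusted p of 0.672, 0.414 and 0.0953. C1qb measured 1.64, 0.74 and 0.58 in untreated callosum, 2.84, 1.60 and 2.79 at 2 weeks, 2.46, 1.92, 3.69 and 2.56 at 4 weeks, and 2.41 to 5.37 (median 2.69) on regular diet. C1qc measured 3.35, 2.29 and 2.12 in untreated callosum, 4.43, 3.28 and 4.51 at 2 weeks, 5.04, 3.78, 5.24 and 4.52 at 4 weeks, and 4.02 to 7.31 (median 4.51) on regular diet. The order of arrays was similar for all 3 chains, with untreated array 1 highest of its group, array 2 lowest at 2 weeks and arrays 1 and 2 highest on regular diet. On regular diet the log2 fold change was 2.47 ± 0.67 for C1qb (adjusted p = 0.13) and 2.65 ± 0.72 for C1qc (adjusted p = 0.131, limma).

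Taken relative to their untreated means, C1qa and C1qb differed by a root mean square of 0.23 log2 units over the 16 arrays, and C1qc differed from them by 0.33 and 0.31. Without regular diet arrays 1 and 2, a choice made after seeing the data, the C1q log2 fold changes on regular diet were 1.88, 1.60 and 1.68 for C1qa, C1qb and C1qc. The other 4 regular diet arrays measured 3.21 to 3.64 for C1qa, within the range of the 4-week arrays. None of the 3 genes was called with or without these 2 arrays.

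The median of microglia and macrophage markers moved over the arrays with C1q. Of 10 listed markers 9 were tested, and relative to the untreated mean their median ran from -0.37 to 0.65 in untreated arrays, -0.10 to 1.15 at 2 weeks, 0.75 to 1.98 at 4 weeks and 0.91 to 4.06 on regular diet. Their summed linear signal, in multiples of the 75th percentile, ran from 26.6 to 55.6 in untreated arrays, 40.6 to 97.4 at 2 weeks, 67.5 to 160 at 4 weeks and 75.7 to 783 on regular diet. Regular diet arrays 1 and 2 had marker medians of 3.79 and 4.06, and the other 4 arrays 0.91 to 1.49. Single markers varied more. Their log2 fold changes against untreated ran from -0.60 to 2.15 at 2 weeks, 0.08 to 2.42 at 4 weeks and 0.61 to 3.44 on regular diet. At 2 weeks 7 of 9 were above 0, and 1 was higher at an unadjusted p under 0.05. The part of microglia and macrophages in the C1q values was not tested.

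C4b and C3, the opsonins cleaved downstream of C1q, rose on regular diet against untreated callosum. C4b measured 0.25, 0.54 and -0.25 in the untreated arrays, 1.88, 0.50 and 1.44 at 2 weeks of CPZ, 0.99, 1.12, 2.43 and 1.32 at 4 weeks, and 2.08 to 3.05 with a median of 2.19 on regular diet. All 6 regular diet arrays and all 4 arrays of 4 weeks exceeded every untreated array, and only array 2 at 2 weeks overlapped them. C4b was 4.56-fold higher on regular diet than in untreated callosum (log2 fold change 2.19 ± 0.36, limma adjusted p = 0.0111). At 2 and 4 weeks of CPZ its log2 fold change was 1.09 ± 0.41 (adjusted p = 0.373) and 1.29 ± 0.38 (adjusted p = 0.289), neither of which was called.

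C3, the component on which the pathways converge, measured -0.67, -1.55 and -2.16 in the untreated arrays. After 2 weeks of CPZ it measured 1.73, -1.86 and -0.87, and after 4 weeks 0.54, -0.87, 0.44 and 0.10. On regular diet it ran from 1.30 to 1.74 with a median of 1.65. The 6 regular diet arrays spanned less than any other group and lay above all untreated and all 4-week arrays, whereas 2-week array 1 reached their level and the other 2 arrays of that group lay within the untreated range. C3 was 8.28-fold higher on regular diet than in untreated callosum (log2 fold change 3.05 ± 0.58, limma adjusted p = 0.0233). With normexp background correction, which adds an offset of 50 signal units and so shrinks the folds of dim probes by construction, the log2 fold change was 2.23, and C3 was still called. The second C3 probe was well above background on 1 array at 2 weeks and 2 arrays on regular diet and gave no test.

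These 2 calls depended on single untreated arrays. Without untreated array 3 neither gene was called on regular diet (log2 fold changes 1.97 for C4b and 2.70 for C3), and without untreated array 2 C4b was called and C3 was not (3.00). Without regular diet arrays 1 and 2, C4b (2.31) was still called, C3 (3.12) was not, and C3ar1 (2.20) was. In contrast to C1q, C4b measured 2.09 and 2.17 on regular diet arrays 1 and 2 and C3 measured 1.30 and 1.61, within or below the range of the other 4 arrays.

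**Figure D2:**
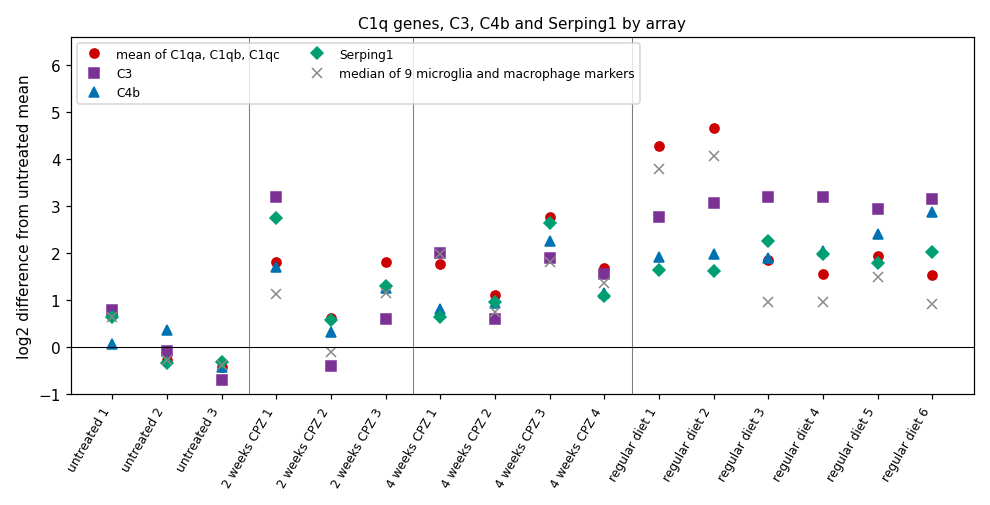
Log2 difference from the untreated mean (y axis) on each of the 16 arrays (x axis, grouped by vertical lines) for the mean of the C1q genes, C3, C4b and Serping1, with the median of 9 microglia and macrophage markers as crosses. C1q and the marker median are highest on regular diet arrays 1 and 2, where C4b and Serping1 sit at about the level of the other regular diet arrays.

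The receptor C3ar1, which binds the fragment C3a, was not well above background on any untreated array, so only a bound on its change could be given. Its untreated values were -4.33, -4.27 and -4.97, against -2.29, -3.00 and -2.36 at 2 weeks, -1.80, -3.33, -1.58 and -2.45 at 4 weeks, and -2.71 to 0.76 (median -1.96) on regular diet. Every treated array lay above every untreated array. On the processed signals the bounds for C3ar1 were 3.93-fold, 4.69-fold and 8.98-fold at 2 weeks, at 4 weeks and on regular diet. They equal the fitted fold changes (SE 0.82, 0.77 and 0.71 log2 units) and make no allowance for the spread between arrays. The limma adjusted p was 0.433, 0.337 and 0.056, and C3ar1 was not called. With normexp and its offset the log2 fold changes were 0.13, 0.35 and 0.69; the offset exceeds the untreated signals of this probe, so these values say little about the bounds. Its second probe gave at least 4.27-fold on regular diet (adjusted p = 0.0448), past the threshold where the brighter probe was not; since the probe was tested only because treated arrays were bright, this p supports no rise. At least 1.74-fold and 2.17-fold were measured with that probe at 2 and 4 weeks, 3 of the 4 arrays at 4 weeks being well above background.

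Itgam, the alpha chain of CR3 that binds the C3 fragment iC3b, did not pass the test in any comparison with untreated callosum. It measured -1.29, -1.96 and -1.81 in untreated arrays, -1.60, -3.13 and -1.75 at 2 weeks and 0.93, -2.52, -0.43 and -0.10 at 4 weeks. On regular diet arrays 1 and 2 measured 2.15 and 2.67, and the other 4 arrays -2.09 to -1.50, inside or just below the untreated range. The log2 fold change of 1.29 ± 1.06 (limma adjusted p = 0.622) thus rested on the first 2 arrays, being -0.11 without them. A second Itgam probe, for another transcript accession, measured -1.98, -2.16 and -2.27 in untreated arrays. It measured 2.17 and 2.34 on regular diet arrays 1 and 2, and -1.67 to -1.18 on the other 4. The groups did not overlap, and the log2 fold change over all 6 arrays was 1.91 ± 0.87 (limma adjusted p = 0.46).

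C5ar1, the receptor for C5a, was well above background on 1 of 16 arrays, regular diet array 1, where it measured -4.03. Regular diet array 2 measured -4.45, and the other 14 arrays lay between -7.43 and -5.89 without being well above background. C5ar1 therefore has a measured level on that array only.

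Serping1, whose product inhibits C1r, C1s and other proteases, measured -1.97, -2.94 and -2.92 in untreated arrays. After 2 weeks of CPZ it measured 0.13, -2.04 and -1.30, and after 4 weeks -1.96, -1.64, 0.03 and -1.53. On regular diet it ran from -0.98 to -0.36 with a median of -0.72. The regular diet arrays exceeded all untreated arrays, and array 1 at 2 weeks and array 3 at 4 weeks were the highest of all 16. The log2 fold change was 1.54 ± 0.53, 1.33 ± 0.49 and 1.89 ± 0.46 at 2 weeks, at 4 weeks and on regular diet, with limma adjusted p of 0.32, 0.353 and 0.0765, so none was called. With normexp background correction these were 0.67, 0.48 and 0.78. On regular diet Serping1 was called in 6 of 30 alternative settings. Among them were slide as a fixed block (2.04, limma adjusted p = 0.0474) and as a random block (1.93, adjusted p = 0.0468). In 23 settings it stayed uncalled, and under the recorded assignment its sign turned (-0.37). Serping1 followed C4b over the arrays, with a root mean square difference of 0.47 log2 units relative to the untreated means.

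Markers of tissues that border the callosum were high on some of these arrays. Array 1 at 2 weeks was highest of its group for C1qa, C1qb, C4b, C3, C3ar1, Itgam and Serping1. Its median over 8 markers of meningeal and perivascular fibroblasts was 1.83, against -0.49 to 0.34 in untreated arrays. Array 3 at 4 weeks, highest of its group for C1qa, C1qb, C1qc, C4b, C3ar1 and Serping1, had a median of 3.03 over 8 tested choroid plexus markers, against -1.03 to 1.23 in untreated arrays. On regular diet array 4, with medians of 2.71 for choroid plexus and 1.21 for fibroblasts, C3 (1.74) was the highest of its group, while C4b (2.22) and Serping1 (-0.62) were in the middle. On 4-week array 2 the choroid plexus median was 1.56, and the C1q values were the lowest of their group. The summed signal of the fibroblast markers ran from 7.42 to 14.1 in untreated arrays, 6.86 to 38.3 at 2 weeks, 5.75 to 18.5 at 4 weeks and 4.77 to 25.4 on regular diet. That of the choroid plexus markers ran from 38.9 to 95 in untreated arrays, 15.6 to 52.3 at 2 weeks, 6.53 to 145 at 4 weeks and 7.71 to 154 on regular diet. The part of these tissues in the complement values was not tested. Neutrophil and monocyte markers (3 tested) had medians of 1.32 on 2-week array 1 and 1.20 on 4-week array 3. They ran from -0.49 to 0.56 in untreated arrays and from -1.11 to 0.09 on regular diet, and their part was not tested either. Astrocyte markers (10 tested) had medians of 0.41 to 0.54 at 2 weeks, 0.05 to 0.92 at 4 weeks and 0.15 to 0.37 on regular diet, against -0.38 to 0.45 in untreated arrays. These medians cover markers with values of both signs. Log2 fold changes ran from -1.01 to 2.24 at 2 weeks, -0.27 to 1.96 at 4 weeks and -0.55 to 2.09 on regular diet. Of the 10, 5, 5 and 4 were higher and 1, 0 and 0 lower at an unadjusted p under 0.05, and 0 were called. Over all probes 9.62%, 11.1% and 10.7% had such a p in either direction. The part of astrocytes in the complement values was not tested.

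**Figure D3:**
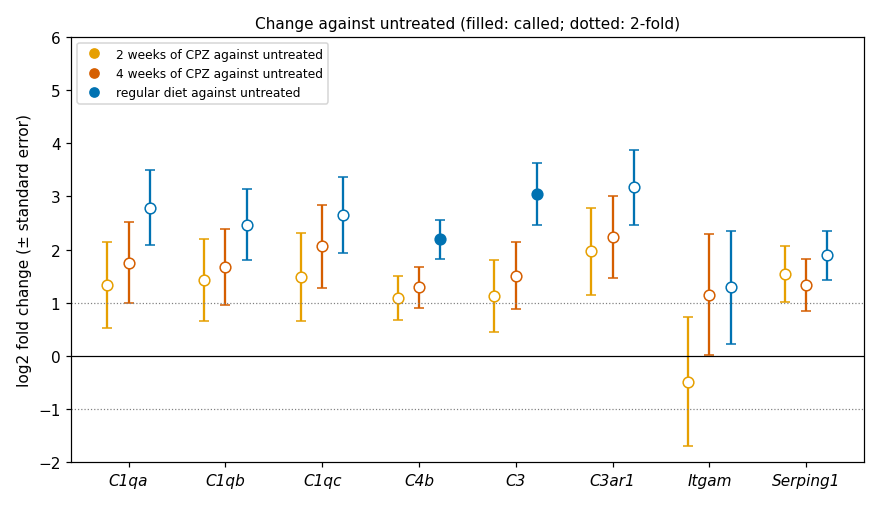
Log2 fold change against untreated (y axis, ± standard error) of the 8 tested complement genes (x axis) at 2 weeks of CPZ, 4 weeks of CPZ and on regular diet; filled points were called and the dotted lines mark 2-fold. Only C4b and C3 on regular diet are filled, and Itgam has the widest errors.

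Between the treated groups, 0 of the 8 genes were called. For regular diet against 4 weeks of CPZ, where 0.0036% of probes were called, the log2 differences ran from 0.14 to 1.54, and 2 genes, C4b and C3, had an unadjusted p under 0.05, against 24.7% of probes. C3 had the largest difference, 1.54 ± 0.53, and was the only one of the 8 for which all 6 regular diet arrays lay above all 4 arrays of 4 weeks, against 4.21% of probes. For 4 against 2 weeks of CPZ, where 0.209% of probes were called either way and 0.0648% higher, the differences ran from -0.21 to 1.63 and 0 had an unadjusted p under 0.05, against 17.4% of probes. For 0 of the 8 genes did all 4-week arrays lie above all 2-week arrays, against 5.47% of probes. The methods' test also called 0 of the 8 in both comparisons.

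Other genes of the complement system were read from a list of 51, of which 49 were on the array and 30 were tested. Of these 30, 1 was called higher at 2 weeks, 1 at 4 weeks and 3 on regular diet, and 0 were called lower, where 0.0972%, 0.0108% and 0.789% of all tested probes were called higher. The median log2 fold change of the 30 was 0.35, 0.15 and 0.47, against -0.02, 0.03 and -0.07 over all named genes. Of the 30, 9 entered the test only through treated groups, so these counts and medians are descriptions. Cfb, Ptx3 and C4a were well above background on none of the 3 untreated arrays, C1s1 on 1, and Itgax, C1rb, C8g, Cr2 and Cd55 on 2. The genes called were Itgax and Cfb, which are among these 9, and C2, whose call was lost in 20 of 30 alternative settings. No common theme is drawn from them.

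Itgax, the alpha chain of CR4, measured -3.67, -4.75 and -4.44 in untreated arrays, of which 2 of 3 were well above background. It measured 1.65, 0.05 and 0.26 at 2 weeks, 1.62, 0.51, 2.70 and 1.19 at 4 weeks, and 1.27 to 3.43 on regular diet, with no overlap with untreated arrays. The log2 difference of Itgax from untreated callosum was 4.94 ± 0.65 at 2 weeks (limma adjusted p = 0.014), 5.79 ± 0.61 at 4 weeks (adjusted p = 0.00364) and 6.59 ± 0.56 on regular diet (adjusted p = 0.000263), and because 1 untreated array was not well above background these sizes are approximate and the p-values support no more than the description. With normexp background correction the differences at 2 and 4 weeks were 2.12 and 2.81 and were not called. The replicate block lost the same calls, with differences of 4.94 and 6.0. The 2-week call was also lost when only the 2 groups were fitted (4.94) or without untreated array 2 (4.71) or 2-week array 1 (4.44). On regular diet the difference was 3.57 with normexp and was called. Its partner Itgb2, the beta chain that CR3 and CR4 share, measured -2.20 to -1.73 in untreated arrays, -0.65, -1.64 and -0.89 at 2 weeks, -1.13 to 0.17 at 4 weeks and -0.98 to 2.57 on regular diet, and was not called on regular diet (2.31 ± 0.72, adjusted p = 0.21). Regular diet arrays 1 and 2 were the highest for Itgb2 (2.08 and 2.57), and the difference was 1.28 without them.

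C2, which joins C4b in the classical convertase, measured -1.98, -2.27 and -2.78 in untreated arrays and -1.36 to 0.63 on regular diet, without overlap. It rose on regular diet by 2.06 ± 0.43 on the log2 scale (limma adjusted p = 0.0413), and at 2 and 4 weeks the differences of 1.86 ± 0.50 and 1.62 ± 0.46 were not called. The C2 call was lost in 20 of 30 alternative settings. Among these the regular diet difference was 0.95 with normexp, 1.88 with median scaling and 2.04 with quantile normalization. It was 2.06 when every probe was tested whatever its brightness, and 2.24, 2.10 and 1.84 without untreated array 1, 2 and 3. Cfb, the protease of the alternative convertase, was not well above background on any untreated array. On the processed signals it was at least 2.33-fold, 2.35-fold and 2.54-fold higher at 2 weeks, 4 weeks and on regular diet, with limma adjusted p of 0.0665, 0.0973 and 0.00887. With normexp and its offset the log2 differences were 0.01, 0.10 and -0.16. The regular diet call was also lost without untreated array 3, and since the probe was tested only because treated arrays were bright, it supports no rise.

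Among the 30, Sez6l2, a sushi-domain protein of neurons, had the lowest log2 fold change in all 3 comparisons (-1.56, -1.29 and -1.37), and it was called in none. For Cd59a, an inhibitor of the membrane attack complex, the log2 fold changes of -1.14 and -0.82 at 2 and 4 weeks were not called (limma adjusted p of 0.488 and 0.558). The remaining genes of the 3 highest and 3 lowest were Ptx3, Sez6, Cr2, Cd93 and Susd4, and none of them was called. Ptx3, a soluble pattern recognition molecule, was at least 2.15-fold higher at 2 weeks on the processed signals but at log2 -0.07 with normexp. Log2 fold changes were -0.66 for Sez6 at 2 weeks, and -0.89 for Cd93 and -0.51 for Susd4 on regular diet. Cr2, a receptor for C3 fragments, was at -1.16 at 4 weeks (-0.32 with normexp). Only 1 of 4 arrays at 4 weeks and 2 of 3 untreated arrays were well above background for Cr2, so this size is uncertain. C4a, a close copy of C4b on the same chromosome, had bounds of at least 1.73-fold, 2.82-fold and 3.84-fold at 2 weeks, 4 weeks and on regular diet, 2 of 3 arrays being well above background at 2 weeks, and was not called. Signals of the C4a and C4b probes may be shared between the 2 copies.

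**Figure D4:**
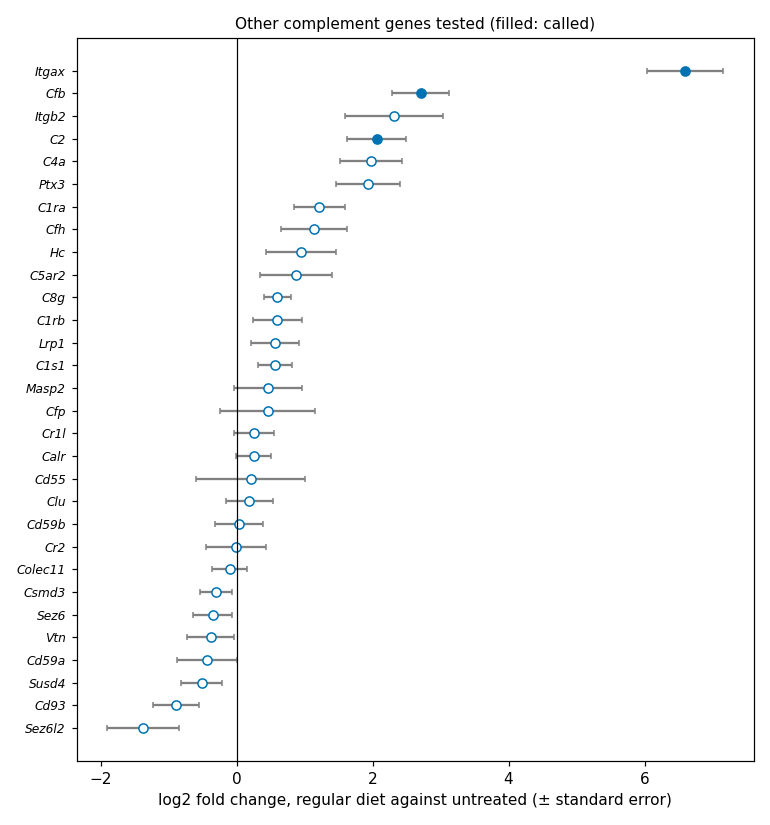
Log2 fold change on regular diet against untreated (x axis, ± standard error) of the 30 other complement genes tested (y axis). The 3 filled points, Itgax, Cfb and C2, were called; Sez6l2 is the lowest at -1.37.

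Over the 16 arrays, genes outside the 9 whose difference from the untreated mean was among the most like the mean of C1qa, C1qb and C1qc included Renbp, Ctsh, Rac2 and Hvcn1. Their root mean square differences were 0.17, 0.22, 0.24 and 0.26 log2 units, where the median over 12555 genes was 2.23. Rac2 is a GTPase of blood cells, Hvcn1 a proton channel and Ctsh a lysosomal protease. Outside the 9 genes, those most like C4b were H2-D1, S100a4, H2-Q10, Gfap and Cd274, at 0.49, 0.51, 0.52, 0.52 and 0.52, where the median was 1.71. H2-D1 and H2-Q10 belong to the class I family, whose probes can share signal, and Gfap is the intermediate filament of reactive astrocytes. Likeness to C4b was looser than likeness to C1q. Itgam, taken by its brightest probe, stood apart from the other 7 tested genes, at 1.36 to 1.93 from each. Its second probe was not compared in this way.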

How the data were processed

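RNA from the corpus callosum was hybridised in one colour (Cy3) to whole mouse genome 4x44K arrays. The authors scanned the arrays and deposited spot intensity files from Agilent Feature Extraction 11.0.1.1 (per the labels), holding background-corrected processed signals and a flag for spots well above background. The deposited value table holds log2 values that the authors scaled to each 75th percentile and then expressed as differences from the untreated median. No depth exists for arrays, so the number of arrays limits precision.

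Each scanner output was assigned to the sample whose value-table column it matched (lowest r of a match 0.9973, next best 0.774, over 41047 probes). The log2 processed signal minus the log2 75th percentile was computed, control and outlier spots were left out, and repeated spots were averaged. Of 41174 probes, 27774 stood well above background throughout at least 1 of 4 groups and were fitted with limma 3.58.1 in R 4.3.3 over all 16 arrays, with Benjamini-Hochberg adjustment over the whole table. Residual SDs had a median of 0.386 log2 units, with 12 residual degrees of freedom. Fold changes of probes dark in untreated callosum are given as lower bounds against the lowest signal well above background on each array or the probe's own, whichever is higher. These bounds make no allowance for the spread between arrays. The brightest tested probe stands for a gene. Probe names came from accessions matched to RefSeq symbols, which named 27479 probes.

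The 9 genes were always named. From the other complement genes, those called against untreated and the 3 highest and 3 lowest per comparison were named; C4a was added after its values were seen. The genes nearest to C1q and to C4b over the arrays were also named, and 1 of them is not reported here. Members, lists and tests were chosen with earlier results of these data known. Normexp correction used median spot signals, because mean signals were not in the files used here. The other alternatives were the normalization, the filter, slide and replicate blocks, array weights, the methods' test and leaving out each array. The scripts were tested on simulated data.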

Additional observations from a re-analysis of the deposited data

How the results depend on the processing

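Under the alternatives other than those named here, each count of complement genes called stayed within 1.5 times its value. On regular diet against untreated, where 2 genes were called, 4 were called with slide as a random block (C3, C3ar1, C4b and Serping1) and 0 with the array assignment recorded for the scanner outputs or with the methods' test. Array weights called 7 genes in each comparison with untreated and 1 (C3) for regular diet against 4 weeks of CPZ, but the weights did not fully converge. Leaving out one array at a time gave 0 to 3 genes on regular diet against untreated, and 0 to 1 on regular diet against 4 weeks (C4b without 4-week array 3). Same-numbered arrays did not pair (correlations of deviations from -0.806 to 0.343, 5 of 19 pairs over 0.1), and with the replicate block 0 of the 8 genes were called on regular diet; the Itgax calls at 2 and 4 weeks and those of C2 and Cfb were also lost with it.

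Calls over all tested probes moved as well, with array weights to 1937, 1710 and 1073 at 2 weeks, 4 weeks and on regular diet against 27, 3 and 222. On regular diet they were 327 with slide as a random block, 24 with the replicate block, 13 with the methods' test and 0 under the recorded assignment. Leaving out one array gave 0 to 78, 1 to 290 and 5 to 240, and 0 to 1549 for regular diet against 4 weeks and 0 to 485 for 4 against 2 weeks, against 1 and 58. For regular diet against 4 weeks, quantile normalization called 323 probes, median scaling 1273 and array weights 1572, against 1. Over the alternatives that keep all arrays, calls ran from 0 to 1937, 0 to 1710 and 0 to 1073 in the comparisons with untreated and 0 to 2875 for 4 against 2 weeks. The Itgam difference at 2 weeks turned to 0.46 with slide as a fixed block, 0.20 under the recorded assignment and 0.06 with array weights, and ran from -0.76 to 0.01 when one array was left out; on regular diet it was -0.11 without regular diet arrays 1 and 2, an alternative chosen after seeing the data. Normexp, whose offset of 50 shrinks differences of dim probes by construction, gave smaller values for C3ar1 on regular diet (0.69), Serping1 (0.78), C3 (2.23) and Itgax (3.57); Ptx3 at 2 weeks was -0.07 and Cfb on regular diet -0.16. Under the recorded assignment the differences called on regular diet shrank to 0.16 for C4b, 0.09 for C3, 0.19 for C2, 0.48 for Cfb and 1.99 for Itgax, none of them called, and the Itgax call at 2 weeks (2.44) was lost too. Not called in either assignment on regular diet were C1qa (0.41 when recorded), C1qb (0.30), C1qc (0.59) and C3ar1 (0.96). The signs also turned for Ptx3 (-0.29), Sez6l2 (0.38), Cd59a (0.77) and Sez6 (0.10) at 2 weeks, for C1qb (-0.08), C1qc (-0.02), C3 (-0.22), Serping1 (-0.87), Itgax (-0.24), Cfb (-0.44), C2 (-0.70) and Cd59a (0.01) at 4 weeks, and for Serping1 (-0.37) and Susd4 (0.56) on regular diet. The cause of these changes was not tested. Dim probes (C3ar1, C5ar1, Cfb) are limited by their signal over background.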

Other observations

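Oligodendrocyte markers, which check the tissue and the treatment, had medians relative to the untreated mean of -0.62 to 0.52 in untreated arrays, -4.71 to -1.76 at 2 weeks of CPZ and -4.52 to -1.58 at 4 weeks, over 9 tested genes. On regular diet, arrays 1, 2 and 3 had medians of -3.69, -3.45 and -2.83, and arrays 4, 5 and 6 had medians of -0.01, 0.05 and 0.65. C1q was highest on arrays 1 and 2, while array 3, also low in these markers, measured 3.48 for C1qa, near arrays 4, 5 and 6. C4b and C3 were above every untreated array on all 6, and so were C1qa, C1qb, C1qc, C3ar1 and Serping1. The same held for 4.88% of all tested probes.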
